A study of Mus musculus with 6 samples.

Results

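The sarcomere is the contractile unit of striated muscle, and 39 genes for its structure were examined: components of the thick and thin filaments, the Z disc, the M band, the intermediate filaments around them, the strain-responsive and anchoring proteins, and the factors that assemble them. Each gene stands for the probe set annotated to its symbol alone; of several, the brightest on average was taken. This gave a value for 38 of the 39 genes, out of 19938 genes and 35557 probe sets. Capn3, a muscle protease that binds titin, had only a probe set shared with another gene symbol and is given no value.

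RNA came from tibialis anterior, a muscle of the lower leg, of mice 11 weeks old that had been starved for 6 h. The 3 control arrays carry RNA of C57Bl6J mice, and the 3 others RNA of mice labelled MLC-SOCS-3/C57Bl6J, by the labels carriers of a transgene for SOCS-3, an inhibitor of cytokine and insulin signalling. The comparison shows how the muscle's sarcomere transcripts differ between these groups. The labels do not spell out the transgene's promoter, its line, the sex of the mice or whether an array stands for 1 animal, so p-values measure only the spread between these arrays, which may be technical. Values are log2 RMA intensities, and differences are MLC-SOCS-3 minus control on that scale. In whole muscle, fewer cells of a type and less RNA per cell cannot be told apart.

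Socs3 itself read lower, not higher, in the group labelled MLC-SOCS-3. The brighter of its 2 probe sets read 7.37, 7.41 and 7.43 on the controls and 7.07, 7.12 and 7.25 on the others, and the dimmer 6.46, 6.40 and 6.23 against 6.15, 6.15 and 6.12. Neither set overlaps, with differences of -0.26 ± 0.072 and -0.22 ± 0.079 (limma, adjusted p = 0.80 and 0.82). The series' design text states, from earlier work of the submitters, strong transgene expression in tibialis anterior. Which part of the gene the transgene carries is not given in the sources used here, so these values may not check the labels. Groups are therefore named as labelled. The 9 markers of skeletal muscle fibres averaged 13.86 to 13.90 on the 6 arrays, all far above the median probe set (5.99), while only 2 of 7 heart muscle markers were above it, with list means of 5.75 to 5.95. The array medians lay between 5.98 and 6.04.

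In a sarcomere, thin filaments of actin, held at their length by nebulin, tropomodulin and leiomodin, are anchored at the Z disc by alpha-actinin. Thick filaments of myosin carry myosin-binding protein C and are joined at the M band by myomesin, and titin runs from the Z disc to the M band. Desmin filaments tie neighbouring Z discs together. A further set of proteins, among them muscle LIM protein and the muscle ankyrin repeat proteins, moves between sarcomere and nucleus and is known for responding to mechanical strain.

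Most backbone genes of the sarcomere were at nearly the same level on all 6 arrays, while Tcap and Actn2 spanned 0.30 and 0.25. A few genes, among them the strain-responsive Ankrd1, Xirp1 and Csrp3, differed by 2-fold or more between arrays of the same group. Of the 38 genes, 1, Mybpc1, stood apart between the groups without passing the test over the whole array. Of the 38 genes, 9 had a mean above 13, where the highest value of any probe set was 15.08. RMA intensities compress folds of very bright genes. The steadiness of backbone genes such as Ttn, Neb, Acta1 and Actn3 is a statement about intensity, and the part of compression in it was not tested. No gene of the 38 passed limma at an adjusted p under 0.05, and over all probe sets 0 passed (0%), while 2105 of 35557 had an unadjusted p under 0.05. At an unadjusted p under 0.05, 1 of the 38 genes differed (2.63%), against 4.86% of all genes. It was higher, a direction found in 1.36% of all genes, and none was lower, against 3.5%. The median difference over the 38 genes was -0.00061, with 19 positive and 19 negative, beside a median of -0.016 over all genes.

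**Figure D1:**
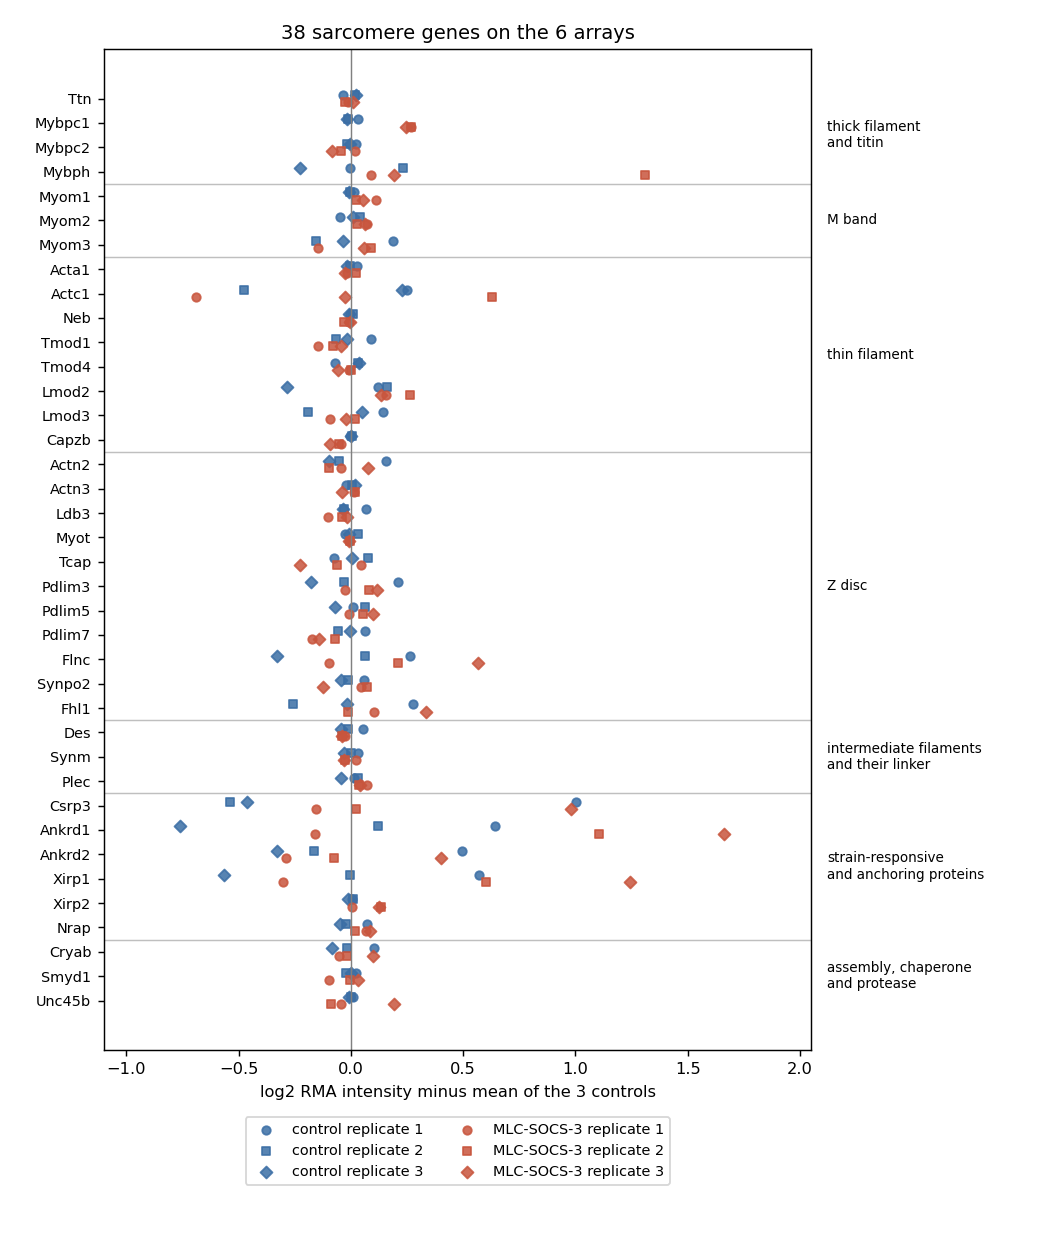
Each point is 1 array's log2 RMA intensity of 1 gene minus the mean of the 3 controls, for 38 genes grouped by structure; blue marks control arrays, red marks arrays labelled MLC-SOCS-3, and circle, square and diamond are replicates 1, 2 and 3. Most genes form a narrow column around 0, Mybpc1 has its 3 red points at about 0.26, and Ankrd1, Xirp1, Csrp3, Actc1 and Mybph spread widest.

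The genomic sequence just upstream of 4 of these genes is shown, because they are the 1 gene that separated the groups most clearly (Mybpc1) and 3 of the 5 whose level moved by 2-fold or more between arrays (Ankrd1, Actc1 and Mybph). They were picked after the values were seen. Each is the 250 bases before the start of the RefSeq gene in GRCm38.p6, printed 5′ to 3′ on the gene's strand. Capitals mark matches to any of 5 motifs searched on both strands: the CArG box bound by serum response factor, the MEF2 site, the E-box CANNTG bound by myogenic factors, the M-CAT motif CATTCC bound by TEAD factors, and the TATA box TATAAA.

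Mybpc1, chr10:88605153-88605402, minus strand: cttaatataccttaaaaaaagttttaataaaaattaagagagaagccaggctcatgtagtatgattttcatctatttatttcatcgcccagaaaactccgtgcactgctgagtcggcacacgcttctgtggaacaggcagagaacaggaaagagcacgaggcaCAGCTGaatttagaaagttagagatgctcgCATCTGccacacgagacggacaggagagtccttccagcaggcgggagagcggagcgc

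Ankrd1, chr19:36119845-36120094, minus strand: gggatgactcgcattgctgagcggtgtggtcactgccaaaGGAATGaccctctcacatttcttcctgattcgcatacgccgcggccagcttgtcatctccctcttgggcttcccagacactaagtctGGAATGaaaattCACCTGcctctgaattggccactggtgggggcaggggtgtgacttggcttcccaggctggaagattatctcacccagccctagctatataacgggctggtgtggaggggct

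Actc1, chr2:114052876-114053125, minus strand: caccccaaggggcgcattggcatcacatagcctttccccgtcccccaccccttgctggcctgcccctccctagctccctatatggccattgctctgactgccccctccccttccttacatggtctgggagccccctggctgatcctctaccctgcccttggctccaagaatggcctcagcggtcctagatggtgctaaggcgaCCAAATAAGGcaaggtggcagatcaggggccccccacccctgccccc

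Mybph, chr1:134193198-134193447, plus strand: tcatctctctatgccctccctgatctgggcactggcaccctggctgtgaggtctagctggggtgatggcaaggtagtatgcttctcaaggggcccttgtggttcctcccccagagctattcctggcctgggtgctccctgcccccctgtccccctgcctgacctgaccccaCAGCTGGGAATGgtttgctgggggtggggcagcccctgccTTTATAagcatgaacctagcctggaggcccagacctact

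These 4 stretches differ in what they hold. Mybpc1 had 2 E-boxes, from bases -87 and -57 before the start, and none of the other motifs. Ankrd1 had 2 M-CAT motifs, from -210 and -123, and 1 E-box from -111. Actc1 had 1 CArG box from -47, and Mybph an E-box from -79 next to an M-CAT motif from -73, with a TATA box from -39. RefSeq entries were matched for 30 of the 39 genes, with 36 starts in all. Of these, 16.7% held a CArG box, against 1.47% of 32851 promoters of the same length, and 13.9% held a MEF2 site, against 2.92%. An E-box was found in 75% against 66.2%, an M-CAT motif in 19.4% against 12.6% and a TATA box in 19.4% against 12.4%. Of the 79 matches, 2 overlapped a match of another motif. A match describes letters in this window and is no evidence of binding.

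Among the thick filament genes, Mybpc1 was brighter on each MLC-SOCS-3 array than on all 3 controls. Mybpc1 (probe set 10371627) encodes slow myosin-binding protein C, which lies along the thick filament and tunes cross-bridges. It read 13.11, 13.06 and 13.06 on the controls and 13.34, 13.34 and 13.32 on the others. The groups did not overlap, and the gap was many times the spread inside either group. The means were 13.08 ± 0.027 (SD, n = 3) and 13.34 ± 0.011 (SD, n = 3), a 1.2-fold difference of 0.26 ± 0.058 (SE). Its 95% interval ran from 0.12 to 0.40, the only interval of the 38 that did not hold 0. The adjusted p in limma over all probe sets was 0.75, so the difference did not pass. In 1 of 14 other settings, with only listed probe sets and a mean-variance trend with robust moderation, it did (limma, adjusted p = 0.0142). Over the other 13 settings its adjusted p lay between 0.24 and 0.97 and the difference between 0.25 and 0.28.

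Mybpc1 lies on chromosome 10, next in gene order to Chpt1, an enzyme of phosphatidylcholine synthesis, which read 10.64 to 10.73 on the controls and 11.08 to 11.32 on the others. Of the 8 nearest measured protein-coding genes, 4 on each side, Gnptab (0.40 ± 0.08), Chpt1 (0.50 ± 0.08) and Utp20 (0.52 ± 0.08) were also separated upward. Spic (-0.37 ± 0.12) was separated downward, and the groups overlapped for Dram1, Sycp3, Gm4925 and Arl1. Spic read only 3.70 to 4.26, Sycp3 3.25 to 3.69 and Gm4925 5.10 to 5.54. These lie below the median probe set (5.99), so their differences carry little weight. Over all genes, 4.52% were separated upward and 7.76% downward. Of genes of slow fibres, the slow troponins Tnnt1 and Tnni1 were at -0.21 ± 0.09 and -0.15 ± 0.09. The slow myosin heavy chain Myh7 was at -0.030 ± 0.10 and the slow light chain Myl2 at -0.47 ± 0.29. The slow tropomyosin Tpm3 was at 0.048 ± 0.073 and Csrp3, described further on, at 0.28 ± 0.50. Also of slow fibres, Myoz2, Myl3 and Tnnc1 were at -0.52 ± 0.21, -0.13 ± 0.34 and -0.075 ± 0.10. None of these genes passed the test. Tnni1 read only 6.01 to 6.41, Myh7 6.12 to 6.42 and Myl2 5.78 to 7.11, near the median probe set (5.99), so their differences carry little weight. Mybpc1, at 13.06 to 13.34, read far above them. The adipocyte marker list was separated in the same direction, with list means on the MLC-SOCS-3 arrays of 6.64 to 6.81 against 6.41 to 6.51 and 6 of 6 measured markers positive, 3 of them above the median probe set. The Schwann cell markers (6.81 to 6.93 against 6.94 to 6.99, 4 of 4 negative) and those of satellite cells and regenerating fibres (6.92 to 7.0668 against 7.0674 to 7.10, 6 of 7 negative) were lower, the latter with groups that almost touch. The part of these in the result was not tested.

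The other thick filament genes showed no such separation. Ttn, the gene of the giant spring protein titin, read 13.57, 13.62 and 13.63 on the controls and 13.59, 13.58 and 13.62 on the others, a span of 0.058 over all 6 arrays. Mybpc2, the fast counterpart of Mybpc1, read 13.61, 13.57 and 13.59 against 13.61, 13.55 and 13.51. Both sets overlap, with differences of -0.010 ± 0.059 and -0.038 ± 0.062. Mybph, a relative of myosin-binding protein C in the A band, read 8.90, 9.13 and 8.67 on the controls and 8.99, 10.21 and 9.09 on the others. A single array, MLC-SOCS-3 replicate 2, stood above all the rest. The difference was 0.53 ± 0.34 (limma, adjusted p = 0.86) and shrank to 0.14 without that array.

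The M band genes were even. Myom1, a myomesin that links thick filaments, read 12.80, 12.78 and 12.77 on the controls and 12.89, 12.80 and 12.83 on the others. Its groups did not overlap, yet the difference was only 0.062 ± 0.061 (limma, adjusted p = 0.89). Myom2, the M-protein of fast fibres, read 12.71, 12.79 and 12.77 against 12.82, 12.78 and 12.82, which overlap. Myom3, a myomesin of intermediate fibres, was the dimmest of the 3 probe sets, at 7.45 to 7.80 on all arrays and a difference of 0.0016 ± 0.12.

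Over all 38 genes, 3 had every MLC-SOCS-3 array above every control (Mybpc1, Myom1 and Plec). That is 7.89% of them, beside 4.52% of all genes. Another 2 had every such array below (Pdlim7 and Capzb), 5.26% beside 7.76% of all genes. Both shares are of the same order as the background.

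In the thin filament, the 2 sarcomeric actin genes behaved differently across arrays. Acta1, the actin of adult skeletal muscle, read 14.62, 14.59 and 14.57 on the controls and 14.57, 14.62 and 14.57 on the others. Actc1, the actin that prevails in heart and in developing muscle, read 12.54, 11.81 and 12.51 on the controls and 11.60, 12.91 and 12.26 on the others. Acta1 thus spanned 1.04-fold over the 6 arrays and Actc1 2.49-fold, with its lowest and its highest array both in the group labelled MLC-SOCS-3. The difference of Actc1 between groups was -0.028 ± 0.37, with an interval from -0.93 to 0.87. The 2 genes encode near-identical proteins, and whether probes are shared between them was not tested.

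Nebulin, tropomodulin and the capping protein stayed within narrow limits. Neb, the ruler along the thin filament, read 13.62, 13.64 and 13.62 against 13.62, 13.60 and 13.62, the narrowest span of all 38 genes (0.039). Capzb, the beta subunit of the protein that caps actin at the Z disc, read 11.48 on all 3 controls and 11.43, 11.43 and 11.38 on the others. Its groups did not overlap, but the difference was -0.064 ± 0.058 (limma, adjusted p = 0.89). Tmod1, which caps the pointed end, read 11.73, 11.58 and 11.63 against 11.50, 11.57 and 11.60, which overlap, with a difference of -0.090 ± 0.072. A dimmer Tmod1 probe set gave 6.95, 6.87 and 6.97 against 6.76, 6.62 and 6.72, a difference of -0.23 ± 0.070 without overlap (limma, adjusted p = 0.80). Tmod4, the tropomodulin of skeletal muscle, was at -0.021 ± 0.064. Of the leiomodins, which start actin filaments, Lmod3 was at -0.032 ± 0.10. Lmod2 read 10.79, 10.83 and 10.39 against 10.83, 10.94 and 10.81, where control replicate 3 was low, and differed by 0.19 ± 0.13 (limma, adjusted p = 0.87), or by 0.044 without that array.

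At the Z disc, 11 genes had a median difference of -0.0037, with 4 positive and 7 negative. Actn3, the fast-fibre alpha-actinin, read 14.11, 14.14 and 14.15 on the controls and 14.15, 14.15 and 14.09 on the others. Actn2, the alpha-actinin of all fibres, read 13.24, 13.03 and 12.98 against 13.04, 12.98 and 13.16. Both overlap, and control replicate 1 was the highest array for Actn2. Myot, which crosslinks actin at the Z disc, spanned 0.057 over the 6 arrays. Tcap, the telethonin that caps titin, read 12.97, 13.12 and 13.05 against 13.09, 12.99 and 12.82, with its lowest value on MLC-SOCS-3 replicate 3, and differed by -0.082 ± 0.092.

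Of the PDZ-LIM proteins, which bind alpha-actinin, Pdlim7 was the one whose groups did not overlap. Pdlim7 read 11.19, 11.08 and 11.13 on the controls and 10.96, 11.06 and 10.99 on the others, a difference of -0.13 ± 0.067 (limma, adjusted p = 0.86). Its 95% interval ran from -0.29 to 0.036. Ldb3, Pdlim3 and Pdlim5 overlapped, with differences of -0.054 ± 0.066, 0.058 ± 0.11 and 0.047 ± 0.069. Synpo2, an actin-bundling protein also made by smooth muscle, was the dimmest of the 38, at 6.72 to 6.91. The smooth muscle and pericyte markers had list means of 8.30 to 8.39 on the controls and 8.31 to 8.36 on the others, with all 10 above the median probe set.

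Flnc and Fhl1 varied more than the rest of the Z disc. Flnc, the muscle filamin that is recruited to sites of fibre damage, read 12.51, 12.31 and 11.92 on the controls and 12.15, 12.46 and 12.81 on the others. Fhl1, a LIM-domain protein of the sarcomere, read 13.09, 12.56 and 12.80 against 12.92, 12.80 and 13.15. In both, the highest array was MLC-SOCS-3 replicate 3 and the groups overlapped. The differences were 0.23 ± 0.22 and 0.14 ± 0.16, with intervals that reached from -0.30 to 0.76 and from -0.25 to 0.53. Leaving out 1 array at a time moved Flnc between 0.056 (without MLC-SOCS-3 replicate 3) and 0.39 (without MLC-SOCS-3 replicate 1), and Fhl1 between 0.011 (without control replicate 2) and 0.28 (without control replicate 1).

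The intermediate filament genes and the assembly factors were flat. Des, the desmin gene, read 12.94, 12.87 and 12.84 on the controls and 12.86, 12.84 and 12.84 on the others. Synm, which partners desmin, spanned 0.063 over the 6 arrays. Plec, the linker between these filaments and the Z disc, read 10.92, 10.94 and 10.87 against 10.98, 10.94 and 10.95, which did not overlap though the difference was only 0.048 ± 0.060. Smyd1, a methyltransferase needed to build thick filaments, and Cryab, the small chaperone of desmin and titin, were at -0.024 ± 0.065 and 0.010 ± 0.081. Unc45b, the myosin chaperone, read 11.16, 11.16 and 11.14 on the controls and 11.11, 11.07 and 11.35 on the others, with MLC-SOCS-3 replicate 3 alone high.

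**Figure D2:**
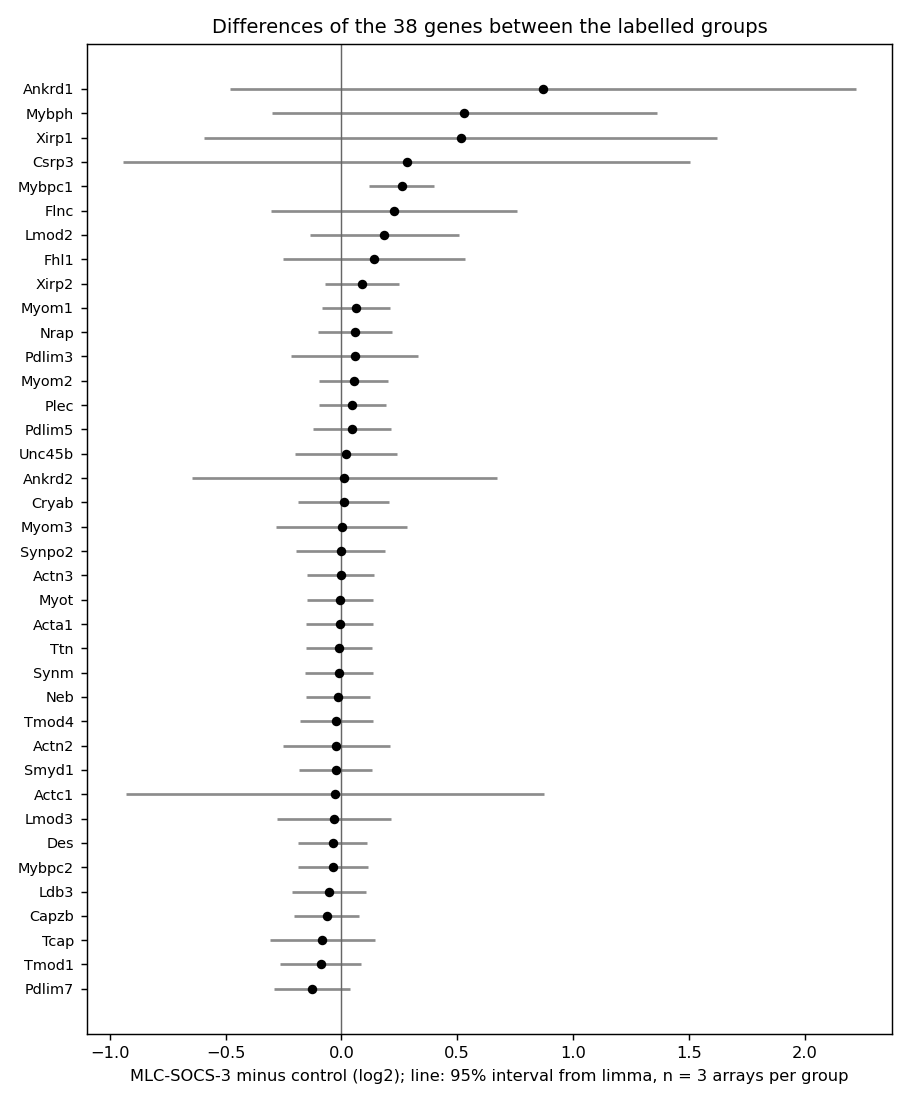
Points are differences in log2 RMA intensity (MLC-SOCS-3 minus control) of 38 genes, ordered by size, and lines are 95% intervals from limma with 3 arrays per group. The intervals of 29 genes lie within -0.5 to 0.5, only that of Mybpc1 leaves out 0, and those of Ankrd1, Mybph, Xirp1 and Csrp3 reach past 1.

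Of the 6 strain-responsive and anchoring genes, Ankrd1, Xirp1, Csrp3 and Ankrd2 differed widely between arrays inside both groups, and Xirp2 and Nrap did not. Ankrd1, a muscle ankyrin repeat protein that binds titin and is induced by stretch and injury, read 10.07, 9.54 and 8.66 on the controls and 9.26, 10.53 and 11.09 on the others. Xirp1, which encodes the Xin protein of attachment sites and damaged fibres, read 10.99, 10.41 and 9.85 on the controls and 10.11, 11.02 and 11.66 on the others. The groups overlapped for both, and both had the same order of arrays, from control replicate 3 as the lowest over MLC-SOCS-3 replicate 1, control replicates 2 and 1 and MLC-SOCS-3 replicate 2 to MLC-SOCS-3 replicate 3 as the highest. Ankrd1 spanned 5.38-fold over the 6 arrays, 2.65-fold among controls alone and 3.54-fold among the others. Xirp1 spanned 3.5-fold, and 2.2-fold and 2.91-fold within the groups. Their differences of 0.87 ± 0.55 and 0.51 ± 0.45 did not pass limma (adjusted p = 0.86 and 0.88). Both changed in size with the array left out, but not in sign. Without MLC-SOCS-3 replicate 3 they were 0.47 and 0.15, without control replicate 3 they were 0.49 and 0.23, without control replicate 1 they were 1.19 and 0.80, and without MLC-SOCS-3 replicate 1 they were 1.39 and 0.92. In the last of these Ankrd1 reached an unadjusted p under 0.05, with an adjusted p of 0.72 in limma.

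Csrp3 and Ankrd2 were high on 1 array of each group. Csrp3, which encodes muscle LIM protein, a Z disc protein enriched in slow fibres, read 10.67, 9.13 and 9.20 on the controls and 9.51, 9.69 and 10.64 on the others. Ankrd2, the ankyrin repeat protein of slow and stretched fibres, read 12.27, 11.60 and 11.44 against 11.48, 11.69 and 12.17. In both, control replicate 1 and MLC-SOCS-3 replicate 3 stood above the other 4 arrays. The differences between groups were 0.28 ± 0.50 and 0.012 ± 0.27, with intervals from -0.94 to 1.5 and from -0.65 to 0.67. Csrp3, Ankrd2, Actc1, Fhl1 and Unc45b are given in full because of their spread, a choice made after their values were seen.

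Relatives of these genes did not vary in the same way. Xirp2, the larger Xin-repeat protein, read 12.73, 12.74 and 12.72 on the controls and 12.73, 12.86 and 12.85 on the others, a difference of 0.088 ± 0.066 with a span of 0.15. Nrap, a nebulin-related protein that anchors actin at the membrane, spanned 0.13 and was at 0.058 ± 0.065.

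**Figure D3:**
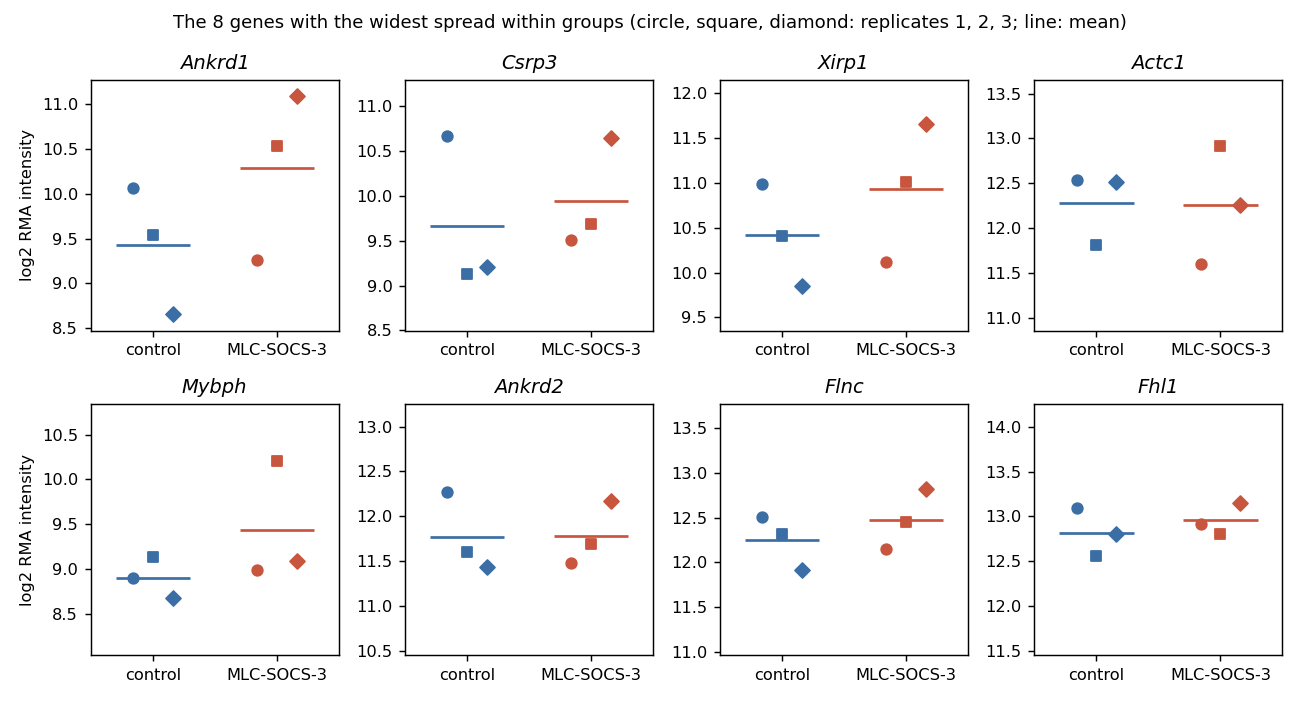
Each panel shows 1 gene's log2 RMA intensity on the 3 control arrays (blue) and the 3 arrays labelled MLC-SOCS-3 (red), with circle, square and diamond for replicates 1, 2 and 3, a line at the group mean and axes of equal length. Ankrd1, Xirp1 and Flnc share their lowest array (control replicate 3) and their highest (MLC-SOCS-3 replicate 3), Csrp3 and Ankrd2 are high on 1 array of each group, and Mybph on MLC-SOCS-3 replicate 2 alone.

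Set beside other genes, the typical spread of the 38 was close to that of genes with a mean above 10, and a minority varied more. The spread was measured as the pooled SD within groups. Its median was 0.058 over the 38 genes and 0.051 over the 33 of them with a mean above 10. Over all 1407 genes with a mean above 10 it was 0.060. Brightness above 10 was not matched further. Among the 11409 genes above the median probe set, the 95th percentile of this SD was 0.22, and 8 of the 38 genes (21.1%) lay beyond it: Ankrd1, Csrp3, Xirp1, Actc1, Mybph, Ankrd2, Flnc and Fhl1. Only 0.114% of those 11409 genes had a larger SD than Ankrd1, and 0.167% a larger one than Csrp3. At the other end, among the 1407 genes with a mean above 10, 99.5% had a larger SD than Neb, 96.9% than Mybpc1 and 93.7% than Acta1. In all, 8 of the 38 genes spanned less than 0.1 over the 6 arrays (Neb, Acta1, Myot, Actn3, Ttn, Synm, Capzb and Des).

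**Figure D4:**
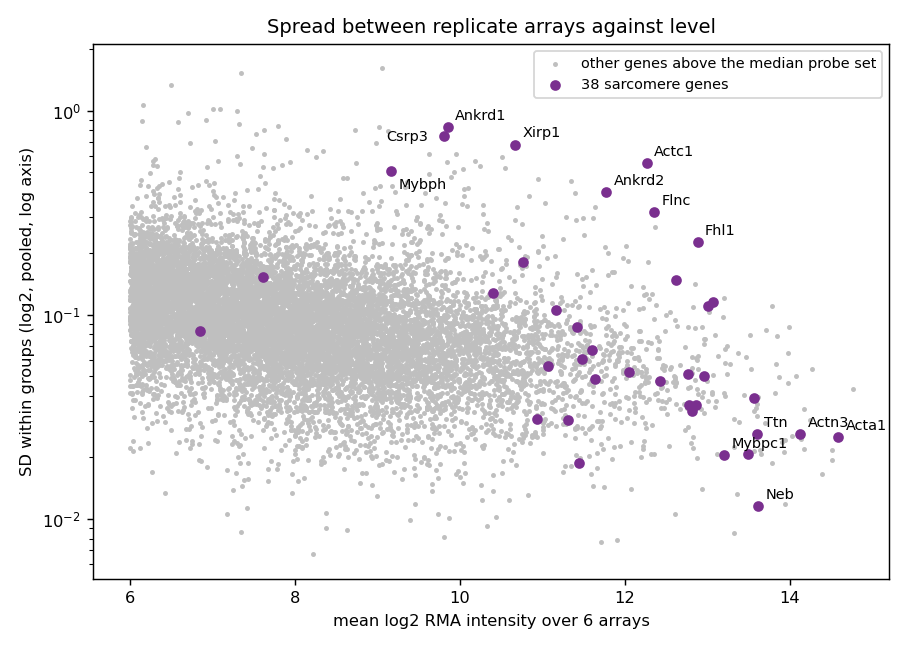
The pooled SD within groups (log2, log axis) is plotted against the mean log2 RMA intensity over 6 arrays, for the 38 genes (purple) and the other genes above the median probe set (grey). Ankrd1, Csrp3 and Xirp1 lie at the top of the cloud, with SDs of 0.83, 0.75 and 0.68, and Neb near its bottom, with 0.012.

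The order of arrays seen for Ankrd1 was shared by other genes. Within both groups, 7 of the 38 genes ranked the arrays as Ankrd1 did (18.4%, Ankrd1 included: Ankrd1, Ankrd2, Xirp1, Flnc, Cryab, Ldb3 and Pdlim3), against 3.66% of the 11409 genes above the median probe set. Over all 6 arrays the exact order was shared by Xirp1 and by 28 of the 11409 genes (0.245%, Ankrd1 included). Among sarcomere genes outside the 38, Klhl40, a kelch protein that stabilises nebulin, had this exact order too, at 9.49, 9.15 and 8.91 on the controls and 8.92, 9.60 and 9.95 on the others. The small heat shock protein gene Hspb1 read 10.94, 10.70 and 10.50 against 10.51, 10.93 and 11.48, and Bag3, a co-chaperone that clears damaged filamin, 10.61, 10.42 and 10.15 against 10.38, 10.48 and 10.73. These too were lowest on control replicate 3 and highest on MLC-SOCS-3 replicate 3. Klhl40, Hspb1 and Bag3 were chosen after their values were seen. The ranks describe 6 arrays and carry no test. Over the same arrays the list means of satellite cell and regeneration markers spanned 6.92 to 7.10 and those of heart muscle markers 5.75 to 5.95, with their highest values on control replicate 2. The macrophage and adipocyte lists did have their highest means on MLC-SOCS-3 replicate 3, at 6.91 and 6.81, and their lowest on control replicates 1 (6.47) and 2 (6.41). The part of other cell types in this spread was not tested.

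Genes of the same structures outside the 38 had more negative than positive differences, and none passed the test. Of 55 listed, 54 were measured and 52 lay above the median probe set. Their median difference was -0.025, with 19 positive and 35 negative, beside -0.016 over all genes and 0.0011 over genes above the median probe set. With an unadjusted p below 0.05, 2 of the 54 stood lower, beside 3.5% of all genes, and 0 higher, beside 1.36%. In 7 of the 54 every MLC-SOCS-3 array lay below every control, a larger share than the 7.76% of all genes. In 0 of the 54 every such array lay above, beside 4.52% of all genes. The count at p below 0.05 is near its background. Igfn1, an immunoglobulin-domain protein of the Z disc, was at -0.79 ± 0.19, from 7.24, 6.87 and 6.77 on the controls to 6.45, 5.87 and 6.19 on the others. Myoz2, a Z disc protein of slow fibres that binds calcineurin, read 10.23, 9.48 and 9.52 against 9.13, 9.30 and 9.24. Control replicate 1 was the highest array for both. Ky, a filamin partner, was at -0.30 ± 0.12 and Smpx, a small stretch-responsive protein, at -0.14 ± 0.069. Their adjusted p-values in limma ranged from 0.79 to 0.84.

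The 21 contractile genes of the thick and thin filaments, which are myosin chains, troponins, tropomyosins and 1 myosin kinase, had a median difference of -0.033, with 5 positive and 16 negative. In 4 of the 21 (Mylk2, Tnnt1, Myh2 and Tnni2) every MLC-SOCS-3 array lay below every control, a larger share than the 7.76% of all genes. In 1 (Myh1) every such array lay above, beside 4.52% of all genes. With an unadjusted p below 0.05, 1 of the 21 stood lower and 0 higher, close to the 3.5% and 1.36% of all genes. That gene was Mylk2, the myosin light chain kinase of skeletal muscle, at -0.22 ± 0.080, from 13.03, 13.08 and 13.04 on the controls to 12.96, 12.73 and 12.81 on the others. Myl4, an embryonic light chain, was at -0.16 ± 0.081 and Myh2, the heavy chain of IIa fibres, at -0.30 ± 0.15. The light chain Myl3 of slow fibres varied inside the control group, at 10.46, 9.22 and 10.32.

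The list means of the remaining markers overlapped between groups, but single markers within them were separated. Tendon markers had list means of 7.63 to 7.96 on the controls and 7.61 to 7.70 on the others, with 7 of 8 negative, and 3 of the 8 (Mkx, Cilp2 and Comp) were separated downward with an unadjusted p under 0.05, beside 3.5% of all genes. Their differences were -0.35 ± 0.07, -0.36 ± 0.08 and -0.23 ± 0.09. Macrophage markers were at 6.47 to 6.75 and 6.60 to 6.91, with 7 of 8 positive and Itgam, an integrin of myeloid cells, at 0.57 ± 0.11. Itgam read only 4.88 to 5.76 and Mkx 5.31 to 5.80, below the median probe set (5.99), so their differences carry little weight. Fibroblast markers were at 9.60 to 9.67 and 9.59 to 9.87, with 8 of 9 positive. None of these passed limma after adjustment. Endothelial markers were at 8.49 to 8.72 and 8.53 to 8.63, and the 2 measured red blood cell markers at 6.26 to 6.40 and 6.24 to 6.34. The part of these in the values of the 38 genes was not tested.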

How the data were processed

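Total RNA of 6 samples was Trizol-extracted, and 300 ng each was labelled for 1 Affymetrix array, per the labels' protocols. The authors deposited log2 intensities. The submitters' processing notes name RMA and Affymetrix Expression Console, with versions not given in the sources used here. This method corrects background, equalises the arrays' distributions and summarises each probe set, which compresses folds of dim and very bright genes. There are no detection calls, so whether dim genes were detected is not known. The number of arrays limits the precision.

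Of 35557 probe sets, 21789 have 1 gene symbol, 1621 several, and 12147 are unnamed. Groups come from the titles. All 35557 were fitted by lmFit and eBayes (R 4.3.3, limma 3.58.1, two-sided tests), with Benjamini-Hochberg adjustment over all of them. The script was tested on simulated data. No array copied another (at most 36 identical values in a pair). The genes, lists and alternatives were chosen with earlier results of these data known; the structure groups were assigned from textbook knowledge.

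Named in full were genes at an unadjusted p under 0.05 or with separated groups, filled to 12 by the smallest p, backbone genes, Socs3 and genes whose probe sets disagree in sign (none did); from other lists, up to 4 by smallest p. Exceptions are said to be chosen after their values were seen. So were the slow-fibre genes set beside Mybpc1, its neighbours on the chromosome, Myl3 and the tendon and macrophage genes. Marker lists covered skeletal fibres, heart muscle, smooth muscle and pericytes, fibroblasts, tendon, macrophages, adipocytes, endothelium, Schwann cells, red blood cells, and satellite cells with regenerating fibres. Promoters are RefSeq's, GRCm38.p6.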

Additional observations from a re-analysis of the deposited data

How the results depend on the processing

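In 14 alternatives, 494 of 532 recomputed differences of the 38 genes kept their sign and their side of the threshold, 37 changed sign, and 1, Mybpc1 with listed probe sets only and a mean-variance trend with robust moderation, passed. Every gene that changed sign had a difference of at most 0.28 in size. With each array centred on its median the signs turned for Ttn (0.0091), Neb (0.0058), Actn3 (0.016), Acta1 (0.012), Myot (0.013), Synm (0.0083) and Synpo2 (0.017), and with quantile normalization once more for Myom3 (-0.0036) and Synpo2 (0.0018). Leaving out 1 array at a time, the ranges that crossed 0 were Ttn -0.029 to 0.00030, Actn2 -0.071 to 0.056, Actn3 -0.014 to 0.014, Acta1 -0.024 to 0.0044, Actc1 -0.36 to 0.30, Myom3 -0.076 to 0.096, Cryab -0.034 to 0.061, Myot -0.019 to 0.0092, Pdlim3 -0.032 to 0.16, Csrp3 -0.067 to 0.78, Lmod3 -0.13 to 0.039, Smyd1 -0.051 to 0.012, Unc45b -0.066 to 0.073, Synm -0.028 to 0.0044, Ankrd2 -0.18 to 0.26 and Synpo2 -0.039 to 0.057.

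The count of probe sets called was 0, and 1 with 1 probe set per gene, 11 with listed probe sets and the trend, and 0 to 1 without 1 array (1 without control replicate 2). Of the 38 genes, 1 was called with listed probe sets and the trend, and 0 in the other settings. At an unadjusted p under 0.05, 2 genes were counted with the trend alone (Mybpc1 and Pdlim7), 3 with listed probe sets and the trend (Xirp2 as well), 2 with the mean of all probe sets of a gene (Tmod1 at -0.16 joined Mybpc1), and 1 to 2 without 1 array. The median difference of the 38 genes ran from -0.0058 to 0.045 without 1 array, with 0.045 without control replicate 1 and 0.037 without MLC-SOCS-3 replicate 1. The cause of these changes was not tested.

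With the replicate number as a block, 0 probe sets were called and Mybpc1 was at 0.26 ± 0.071 (limma, adjusted p = 0.86), and no call changed. Deviations of same-numbered arrays correlated at -0.103, -0.0668 and -0.145, and those of differently numbered arrays at -0.0567 to 0.157. Same-numbered arrays thus did not deviate together. The labels do not say what the numbers mean, so this cannot settle whether the samples were paired.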
